A study of Mus musculus with 10 samples.

Results

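The genes described here flank Smchd1 on mouse chromosome 17. They were taken from the raw-count table by position and count only: a start between 66000000 and 76000000 (GRCm38, mm10), at least 10 counts in at least 2 total-count libraries, and neither Smchd1 itself nor a ribosomal protein gene of the Rps or Rpl families. Among the 52632 rows of that file, 87 lay in the interval, 52 of them met the count rule, none was an Rps or Rpl gene, and 51 remained once Smchd1 was set aside. Of these, 24 start before Smchd1, 2 (Gm37639 and Gm38220) lie inside its span and 25 lie beyond it. They comprise 39 protein-coding genes and 12 others, among them 3 lincRNAs, 2 snoRNAs, 2 annotated antisense transcripts and 2 processed pseudogenes of which 1 is transcribed. All 51 had the same start and end in GENCODE M21. At the edges of the rule, Gm22858 (second-highest count 17), Gm23115 (18) and Alk (18) were just inside the count minimum and 5031415H12Rik (7) and Gm4707 (5) just outside it; Ankrd12, at 65965698, was the nearest expressed gene below the interval and Gm17538, at 77674376, the nearest above it.

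The RNA came from neural stem cell cultures, each grown as an adherent monolayer in EGF and basic FGF from the cortices of 1 embryo at embryonic day 14.5. Mutant embryos carried 1 Smchd1 allele with both a GFP tag and the E147A change in the ATPase domain (E147A/+), and the controls carried neither (+/+), so tag and mutation cannot be told apart. Female embryos of both genotypes also carried 1 XistdeltaA allele, and male embryos of both genotypes were XY. By the labels every embryo had a Castaneus (Cast) father and a mother that was an F1 of 129 and C57. The libraries were 2 female E147A/+ (litters 1 and 2), 2 female +/+ (both litter 3), 3 male E147A/+ (litters 1, 1 and 3) and 3 male +/+ (litters 4, 1 and 3). In females genotype and litter therefore cannot be told apart.

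SMCHD1 is a non-canonical member of the SMC protein family that binds chromatin and helps to keep genes silent, above all on the inactive X and in some clustered and imprinted loci. A mutant allele of any gene is inherited together with the alleles that sit near it on the same chromosome, so mice selected for the mutation also carry the strain type on which it was made, over an interval bounded by meiotic crossovers. Where a neighbouring gene is expressed at different levels from 2 strain types on the same chromosome pair, which is a difference in cis, a difference in strain composition alone changes its total level. Counts assigned to the 129 or the Cast allele were available for the 4 female libraries, and both strain composition and cis differences were read from them. Male allelic counts were not analysed here.

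Cis differences between strains can lie in promoters, and the reference promoters of 5 members are shown because their allelic balance carries the results below. The sequences are from RefSeq (GRCm38.p6), the 250 bases before the annotated start, read 5′ to 3′ on the strand of the gene. Capitals mark matches on either strand to a GC box, spelled GGGCGG. They also mark the CCAAT box, whose letters are its name. The third motif is a TATA box, spelled TATAAA, and neighbouring matches may overlap. The first pair lies next to each other on the minus strand and encodes near-identical regulatory light chains of non-muscle myosin: Myl12a at chr17:71002534-71002783 and Myl12b at chr17:70990517-70990766. The other 3 are on the plus strand: Lbh (chr17:72918055-72918304), Spdya (chr17:71551811-71552060) and Ltbp1 (chr17:75005279-75005528). The RefSeq starts of Myl12a and Myl12b lie 345 and 374 bases inside the gene span of the count table, and that of Ltbp1 is 39 bases before the start in the table.
Myl12a: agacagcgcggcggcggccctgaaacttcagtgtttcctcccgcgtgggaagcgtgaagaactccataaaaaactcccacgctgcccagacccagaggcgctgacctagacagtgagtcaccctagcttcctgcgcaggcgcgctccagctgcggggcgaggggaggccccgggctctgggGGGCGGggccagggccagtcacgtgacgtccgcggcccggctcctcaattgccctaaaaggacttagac
Myl12b: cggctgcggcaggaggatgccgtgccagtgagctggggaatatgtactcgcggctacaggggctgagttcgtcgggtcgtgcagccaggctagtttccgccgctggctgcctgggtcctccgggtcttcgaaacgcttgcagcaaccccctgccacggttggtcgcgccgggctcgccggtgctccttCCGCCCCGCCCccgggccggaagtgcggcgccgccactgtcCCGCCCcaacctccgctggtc
Lbh: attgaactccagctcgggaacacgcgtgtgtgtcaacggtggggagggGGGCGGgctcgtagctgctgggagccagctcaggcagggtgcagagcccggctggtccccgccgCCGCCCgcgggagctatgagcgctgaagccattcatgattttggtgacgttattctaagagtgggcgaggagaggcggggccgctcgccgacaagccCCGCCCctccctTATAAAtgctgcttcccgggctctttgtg
Spdya: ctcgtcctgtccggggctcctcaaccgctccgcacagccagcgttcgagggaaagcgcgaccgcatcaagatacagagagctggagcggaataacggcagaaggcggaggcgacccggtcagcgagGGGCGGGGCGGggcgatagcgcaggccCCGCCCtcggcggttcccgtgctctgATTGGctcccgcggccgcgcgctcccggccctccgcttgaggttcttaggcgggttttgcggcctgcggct
Ltbp1: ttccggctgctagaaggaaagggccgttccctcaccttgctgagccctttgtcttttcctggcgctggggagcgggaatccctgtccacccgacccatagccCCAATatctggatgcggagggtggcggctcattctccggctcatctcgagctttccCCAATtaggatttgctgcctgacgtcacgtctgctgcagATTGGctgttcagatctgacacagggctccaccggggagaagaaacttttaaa
A GC box stood in the windows of Myl12a (1 match), Myl12b (3), Lbh (3) and Spdya (3), and Ltbp1 held none but 3 CCAAT boxes. Lbh was the only 1 of the 5 with a TATA box. Among the 38 members with a RefSeq promoter, 68.4% held a GC box, 23.7% a CCAAT box and 10.5% a TATA box, against 32.7%, 33.8% and 12.4% of all 32851 RefSeq promoters over the same 250 bases. The median number of CpG dinucleotides was 18 in the members and 6 in all promoters, many of which belong to genes that these cultures do not express. The letters are those of the reference strain, and Cast or 129 variants in these windows were not analysed here.

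The libraries held 20648916 to 44519020 counts, of which the 51 members took 34813 to 76087, or 0.165% to 0.188%. Levels below are CPM, counts divided by the TMM-scaled library size, and p-values are from edgeR's quasi-likelihood test adjusted by Benjamini-Hochberg over all 17110 genes tested, with a threshold of 0.05. All 51 members passed its filter on low counts. The labelled cell type was checked on 6 neural stem cell markers, whose summed level was 3590 to 5800 CPM over all libraries, while 4 microglial markers summed to at most 0.235 CPM, 3 endothelial markers to at most 2.46 CPM and 3 fibroblast or meningeal markers to at most 8.54 CPM. Markers of the other neural lineages were present, 4 of neurons at a sum of 529 to 997 CPM and 4 of the oligodendrocyte lineage at 496 to 684 CPM. No marker gene of any list was at 0 in all libraries. The 3 astrocyte markers summed to 98.5 and 116 CPM in the 2 female E147A/+ libraries and to 39 and 75.8 CPM in female +/+, and to 32.6 to 77.3 CPM in males. The oligodendrocyte lineage sum was also higher in female E147A/+ (668 to 684 CPM) than in female +/+ (614 to 642 CPM) and the endothelial sum lower (0.485 to 0.902 against 1.69 to 2.23 CPM), while the male groups overlapped for all 3 lists. Their part in the female differences below was not tested. In such bulk cultures fewer cells of a type and less RNA per cell cannot be told apart.

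Smchd1 itself (ENSMUSG00000024054, 71344489 to 71475343) was at 120 and 115.9 CPM in female E147A/+ and at 139.8 and 171.7 CPM in female +/+. In males it was at 121.4, 127.9 and 94.2 CPM in E147A/+ and at 122.5, 150.9 and 191.8 CPM in +/+. Every E147A/+ library apart from male replicate 2 was below the lowest +/+ library, and the log2 fold change over both sexes did not pass (-0.42, SE 0.15, edgeR adjusted p = 0.786). Gene counts do not show the E147A change itself.

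The cross in the labels gives every embryo 1 Cast chromosome 17, and in the interval around Smchd1 the 2 female E147A/+ libraries went against it. Departures from that cross were not confined to E147A/+ or to this interval: of 256 autosomal 10 Mb bins, the median Cast share was under 10% in 158 and 125 in the E147A/+ females and in 99 and 123 in the +/+ females, and from 35% to 65% in 82 and 123 and in 142 and 119. Of 28420 allelic counts over the members in female E147A/+ 1, 84 were Cast (0.296%, 95% Wilson interval 0.239 to 0.366), and of 29950 in female E147A/+ 2, 49 were Cast (0.164%, 0.124 to 0.216). In female +/+ the Cast share was 46.3% (45.7 to 47) and 48.4% (47.8 to 49). These intervals cover counting error only. Both strains were thus counted almost evenly in +/+ and almost no Cast counts were found in E147A/+.

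The low Cast share held gene by gene. All 43 members with at least 10 allelic counts were under 5% Cast in each E147A/+ female, with a median of 0%; a count of 0 allows a share of up to 0.116% to 30% depending on the depth of the gene. Birc6, a very large inhibitor-of-apoptosis protein that conjugates ubiquitin, had the highest share in both, 3.14% (35 Cast and 1079 129 counts) and 2.28% (20 and 857), and every other member was at or below 1.03%. In +/+ the median share per gene was 48.5% over 41 members and 50.5% over 40. Beyond the interval the 2 mutant females differed: in the bin from 80 Mb the median share per gene was 49.4% in female E147A/+ 1 (47 genes) and 0.337% in female E147A/+ 2 (46 genes), and from 90 Mb 43.2% and 2.25% (5 genes each). In every 10 Mb bin below 80 Mb the medians of both were at most 7.94%.

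**Figure D1:**
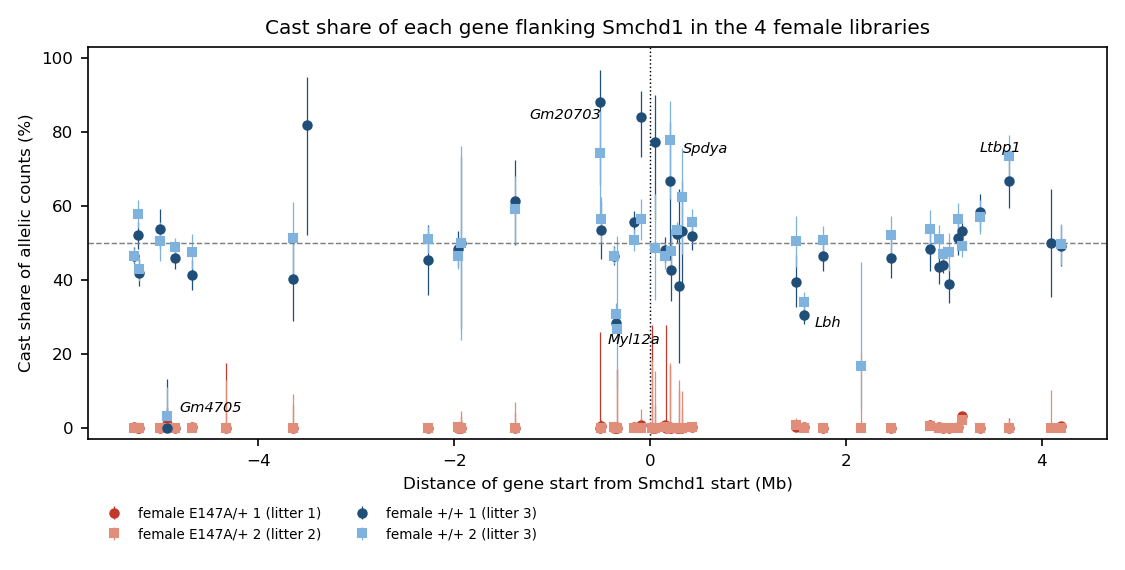
Cast share of allelic counts (%) of each member with at least 10 allelic counts, by distance of its start from the start of Smchd1 (Mb), in the 4 female libraries; bars are 95% Wilson intervals. The E147A/+ points lie at or near 0% along the whole interval, while +/+ points scatter around 50% except for genes such as Myl12a, Lbh, Ltbp1 and Spdya.

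Which members are expressed unevenly from the 2 strain types was asked in the +/+ females, where both are present. The 129 and Cast counts of each library were compared in edgeR with the library as a block, over 3061 autosomal genes in regions where both +/+ libraries carried both strains. Of the 38 members with enough counts 3 passed, all with more 129 than Cast counts: Myl12a, Lbh and the pseudogene Gm4705. None of these 3 passed with all autosomal genes tested (edgeR adjusted p = 0.299, 0.333 and 0.316) or without the library block (0.142, 0.129 and 0.0856), and then 0 members passed in all; 0 of all 12181 autosomal genes passed in the former setting and 2.25% of genes in the latter. On chromosome 17 alone 7 of 38 members passed (18.4%), the same share as of all 575 genes tested there (18.4%), and with at least 30 allelic counts 3 of 33 (9.09%) against 11.6% of all genes. Over all genes tested 7.25% passed (3.85% with 129 higher and 3.4% with Cast higher), and 3 of 38 is 7.89%. The median Cast share was 49.3% in the members and 49.1% in all genes tested, and 76.3% of members against 74.2% of all genes lay between 40% and 60%. The share of members called was thus near the background. The fit has 1 residual degree of freedom, and both +/+ females are of litter 3.

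Myl12a gave 802 counts from 129 and 317 from Cast in female +/+ 1, and 656 and 290 in female +/+ 2. Its Cast share was 28.3% (25.8 to 31) and 30.7% (27.8 to 33.7), the same side in both embryos, and the log2 ratio of Cast over 129 was -1.26 (SE 0.09, edgeR adjusted p = 0.0174, n = 2). Myl12b, its neighbour with a near-identical product, had a share of 46.6% in both libraries (log2 ratio -0.20, SE 0.06, edgeR adjusted p = 0.148). Of the 80-base stretches of Myl12a transcripts 14.3% also occur in transcripts named Myl12b, and 24.6% of those of Myl12b occur in another gene. A further gene entry, also named Myl12b, overlaps both genes on the same strand. The shared stretches may thus lie in that entry as well as between the pair. Reads could be split among these entries, and both values are uncertain to that extent. The promoter windows printed above differ between the pair in GC box number, 1 in Myl12a and 3 in Myl12b.

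Lbh, a transcription cofactor first described in limb bud and heart, gave 953 counts from 129 and 419 from Cast in female +/+ 1, and 837 and 434 in female +/+ 2. The shares of 30.5% (28.2 to 33) and 34.1% (31.6 to 36.8) were below those of all other members with at least 30 allelic counts in both libraries except Myl12a, and the log2 ratio was -1.07 (SE 0.09, edgeR adjusted p = 0.0231, n = 2). None of its 80-base stretches occurs in another gene. Gm4705, a processed pseudogene inside the span of Mtcl1 on the same strand, gave 25 counts from 129 and 0 from Cast in one +/+ female, which allows a Cast share of up to 12%, and 60 and 2 in the other. Its adjusted p was 0.0437 in edgeR, but 56% of its 80-base stretches also occur in Rpl34 or Rpl34-ps1, so its counts may belong to another locus.

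No member with more Cast than 129 counts passed in the main test. Ltbp1, which holds latent TGF-beta in the extracellular matrix, came nearest, with 59 counts from 129 and 118 from Cast in one +/+ female and 52 and 144 in the other. The Cast share was 66.7% (59.4 to 73.2) and 73.5% (66.9 to 79.2), and the log2 ratio was 1.23 (SE 0.20, edgeR adjusted p = 0.0582). Ltbp1 was on the Cast side in both embryos and just short of the threshold in that test. It passed with at least 30 allelic counts (edgeR adjusted p = 0.045) and on chromosome 17 alone (edgeR adjusted p = 0.0208). Spdya, which encodes a cyclin-like activator of CDKs, gave only 7 and 14 counts in female +/+ 1 and 8 and 28 in female +/+ 2. Its share was 66.7% (45.4 to 82.8) and 77.8% (61.9 to 88.3), with a log2 ratio of 1.43 (SE 0.44, edgeR adjusted p = 0.155), and 7.88% of its 80-base stretches also occur in Mettl4-ps1.

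Other departures from an even balance also missed the threshold in the main test. Of those below, Gm20703 and Ddx11 were among the 7 members that passed on chromosome 17 alone, where 18.4% of all genes passed. The lincRNA Gm20703 had Cast shares of 88.2% and 74.3% on 17 and 35 allelic counts (edgeR adjusted p = 0.126). Ttc27, a tetratricopeptide repeat protein, had 58.4% (53.2 to 63.4) and 57% (52.4 to 61.6), with a log2 ratio of 0.45 (SE 0.11, edgeR adjusted p = 0.11). Ddx11, a DNA helicase used in sister chromatid cohesion, was on the other side with 42% and 42.9% (log2 ratio -0.44, SE 0.09, edgeR adjusted p = 0.0801). Emilin2, an elastic fibre glycoprotein, was the only member whose 2 intervals did not overlap, at 84.1% (73.2 to 91.1) on 63 allelic counts in female +/+ 1 and 56.4% (50.7 to 61.9) on 296 in female +/+ 2. Its total level also differed between these embryos, 3.44 and 13 CPM.

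**Figure D2:**
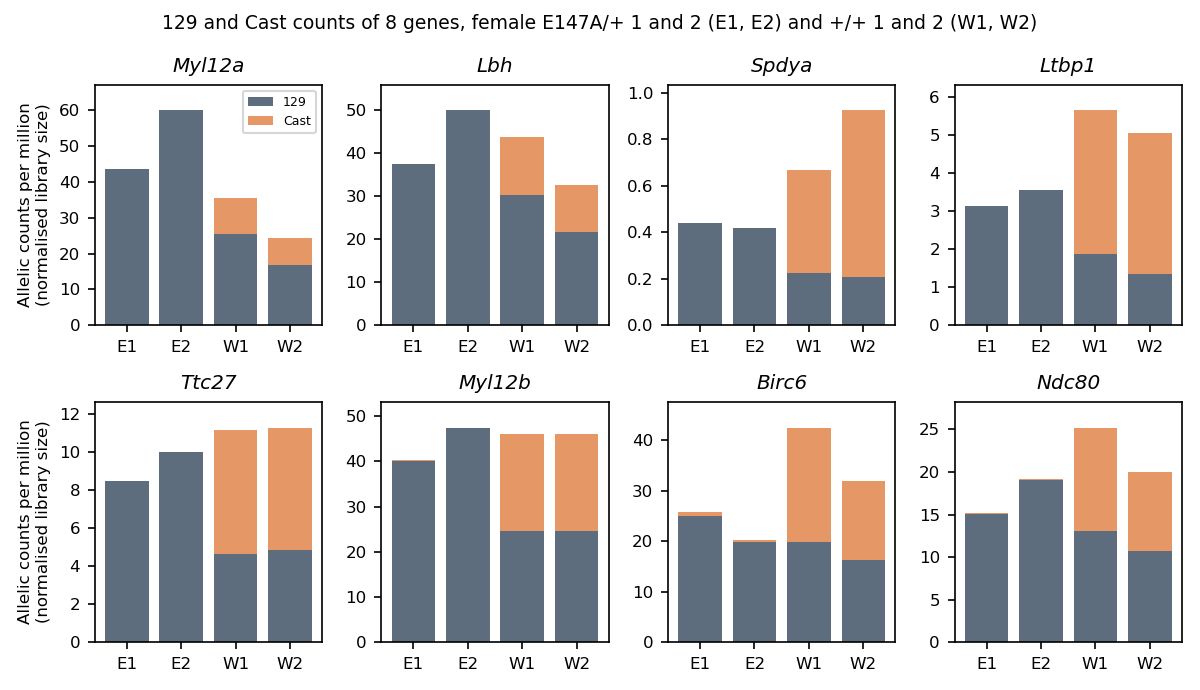
Allelic CPM (counts scaled by the normalised library size) of 8 members, stacked by 129 (grey) and Cast (orange), in female E147A/+ 1 and 2 (E1, E2) and female +/+ 1 and 2 (W1, W2). Cast counts are almost missing in E1 and E2, and the 129 part of Spdya, Ltbp1 and Ttc27 in E1 and E2 is higher than in W1 and W2, while for Birc6 the 129 part of E2 is about level with that of W1.

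The question for the genotype comparison is whether genes linked to Smchd1 differ between E147A/+ and +/+. None of the 51 members passed in the contrast over both sexes, where 0.0818% of all genes passed, in females (0.0117% of all genes), in males (0.0234%) or for the interaction of sex and genotype (0%). DESeq2 also called 0 members in each, where it called 0.662%, 0.275%, 0.299% and 0.0117% of the genes with an adjusted p. At an unadjusted p under 0.05 edgeR gave 5 members over both sexes (9.8%, against 5.9% of all genes), 3 in females (5.88% against 4.36%), 3 in males (5.88% against 3.44%) and 0 for the interaction (1.84% of all genes). DESeq2 gave 6 members (11.8%, against 7.31% of all genes), 3 (5.88% against 5.92%), 4 (7.84% against 4.38%) and 0 (2.58% of all genes). The median log2 fold change of the members was -0.04 in females and -0.03 in males, against -0.01 and -0.02 over all genes, and the median absolute change was 0.36 and 0.32 against 0.27 and 0.20. On simulated data the contrast over both sexes recovered 34.4% of 96 genes changed by 1 on the log2 scale and 87.8% of 98 changed by 3, so changes near 1 would often be missed.

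**Figure D3:**
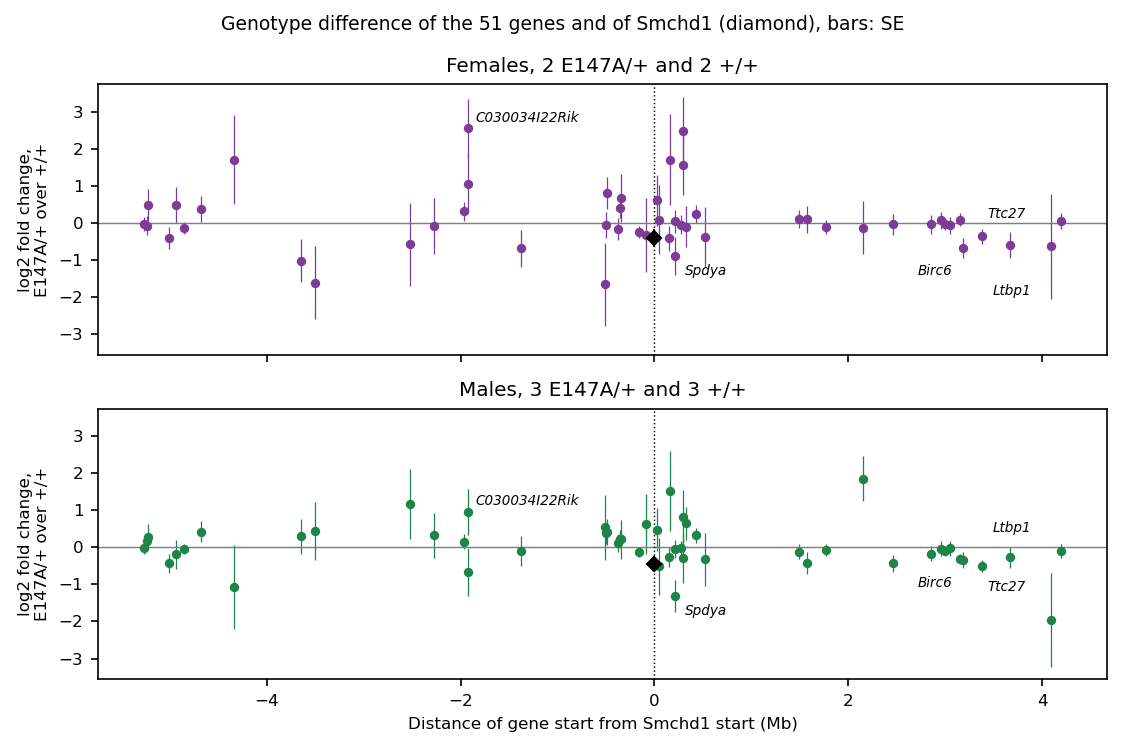
Log2 fold change of E147A/+ over +/+ for the 51 members (circles) and Smchd1 (diamond) by distance from the start of Smchd1 (Mb), in females (top, 2 against 2) and males (bottom, 3 against 3); bars are standard errors. Most members lie near 0 in both, and the large values, such as C030034I22Rik at 2.55 in females, have wide bars.

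Counts of members whose groups did not overlap were read against the same counts over all genes. In females the lower E147A/+ value exceeded the higher +/+ value for 11 members (21.6%, against 21.8% of all genes) and 12 showed the opposite separation (23.5% against 19.3%). In males 1 was higher, Galnt14 (1.96% against 3.2%), and 3 were lower, Spdya, Yipf4 and Ttc27 (5.88% against 3.96%). Over all 10 libraries 0 members were higher throughout (0.695% of all genes) and 2 were lower throughout, Spdya and Ttc27 (3.92% against 0.742%). Neither passed the adjusted test.

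Among the 5 members of cell division and chromosome function (Ndc80, Ddx11, Spdya, Spast and Birc6) none passed in either sex, and 4 of 5 had a negative log2 fold change in each. Spdya was at 1.71 and 1.48 CPM in female E147A/+ and at 2.10 and 3.83 CPM in female +/+. Male E147A/+ libraries were at 0.884, 1.64 and 0.898 CPM and male +/+ libraries at 2.45, 2.16 and 3.88 CPM. Every E147A/+ library was below every +/+ library, with a log2 fold change of -0.89 (SE 0.52) in females and -1.31 (SE 0.44) in males, and the contrast over both sexes did not pass (edgeR unadjusted p = 0.00916, adjusted p = 0.701). Spdya overlaps Trmt61b, at 8.41 to 14.9 CPM, on the opposite strand. Whether the counting used strand is not given in the sources used here.

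Birc6 was at 133.2 and 102.6 CPM in female E147A/+ and at 225.5 and 153.9 CPM in female +/+. In males it was at 144.4, 134.1 and 111.4 CPM in E147A/+ and at 172, 126.7 and 197.2 CPM in +/+. The female groups did not overlap and the male groups did, because the +/+ male of litter 1 was at the lower end. The log2 fold change was -0.69 (SE 0.27) in females and -0.35 (SE 0.22) in males (over both sexes edgeR unadjusted p = 0.014, adjusted p = 0.732). Ndc80, the kinetochore subunit that binds microtubules, was at 37.7 and 47.7 CPM in female E147A/+ and 61.6 and 52.5 CPM in female +/+ (log2 fold change -0.42, SE 0.33), and its male groups overlapped.

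Ttc27 was at 22.2 and 26.7 CPM in female E147A/+ and at 31.3 and 31.4 CPM in female +/+. Male E147A/+ libraries were at 26.4, 25 and 22 CPM and male +/+ libraries at 30.7, 33.6 and 39.8 CPM. As for Spdya the genotypes did not overlap over the 10 libraries, and the log2 fold change of -0.36 (SE 0.21) in females and -0.50 (SE 0.17) in males did not pass over both sexes (edgeR unadjusted p = 0.00997, adjusted p = 0.705). In males the difference of mean log2 levels (0.5 CPM added) was -0.38 within litter 1 and -0.84 within litter 3, and for Spdya it was -0.63 and -1.65.

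The lincRNA C030034I22Rik had the highest log2 fold change over both sexes, 1.76 (SE 0.50, edgeR unadjusted p = 0.00596, adjusted p = 0.667). It was at 3.74 and 2.45 CPM in female E147A/+ and at 0.669 and 0.385 CPM in female +/+. In males it was at 2.36, 3.55 and 0.598 CPM in E147A/+ and at 0.655, 1.5 and 1.18 CPM in +/+. The 4 E147A/+ libraries of litters 1 and 2 were above all +/+ libraries, whereas the E147A/+ male of litter 3 was below the +/+ male of the same litter. Within male litters the difference was accordingly 0.77 in litter 1 and -0.61 in litter 3. The transcript overlaps A930029G22Rik on the opposite strand, and whether the counting used strand is not given in the sources used here.

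Among the next highest were 2 short transcripts inside other members. Gm22858, a snoRNA within Wdr43, was at 0.393 and 0.416 CPM in female E147A/+ and at 0.0318 and 0.103 CPM in female +/+ (log2 fold change 2.48, SE 0.92, edgeR unadjusted p = 0.023, adjusted p = 0.964). It is shorter than an 80-base read, and its count rests on few reads. Gm23115, an rRNA fragment within Ndc80, had a log2 fold change of 1.71 (SE 1.23) in females and 1.52 (SE 1.08) in males at 0 to 0.603 CPM. The host gene Wdr43, a ribosome biogenesis factor at a mean level of 27.2 CPM per kb of exon, had log2 fold changes of -0.04 (SE 0.25) in females and -0.02 (SE 0.20) in males.

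In the chromatin and transcription list (Tgif1, Zbtb14, Dpy30 and Lbh; L3mbtl4 was no member) 0 of 4 passed in either sex, with log2 fold changes from -0.06 to 0.31 in females and from -0.43 to 0.38 in males. Dpy30, a core subunit of the MLL and SET1 histone methyltransferases, was the highest of them per length, at 48.4 CPM per kb. Lbh was at 79.4 and 106.8 CPM in female E147A/+ and at 95.9 and 77 CPM in female +/+. Male E147A/+ libraries were at 83, 55 and 75.2 CPM and male +/+ libraries at 105.5, 53.6 and 127.5 CPM. The genotypes overlapped in both sexes, and the log2 fold change was 0.11 (SE 0.36) in females and -0.43 (SE 0.30) in males.

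For the actomyosin and adhesion list (Myl12a, Myl12b, Ptprm, Epb41l3 and Arhgap28) 0 of 5 passed, and the log2 fold changes ran from -1.62 to 0.41 in females and from 0.13 to 0.45 in males. Myl12a was at 114.4 and 159.3 CPM in female E147A/+ and at 114.6 and 91.2 CPM in female +/+. In males it was at 99.9, 104.5 and 111.9 CPM in E147A/+ and at 63.4, 85.3 and 121.7 CPM in +/+. The groups overlapped in both sexes, with log2 fold changes of 0.41 (SE 0.29) and 0.23 (SE 0.24). Arhgap28 gave the lowest female value, -1.62 (SE 0.99), at 0.162 CPM in each E147A/+ female and at 0.573 and 0.437 CPM in the +/+ females. With litter as a covariate that value was 0.459, with the litter effect estimated from the males alone since it is bound to genotype in females.

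The extracellular matrix genes Lama1, Emilin2 and Ltbp1 had negative log2 fold changes in females, from -1.02 to -0.33, and from -0.27 to 0.63 in males, and 0 of 3 passed. With litter as a covariate, its effect again estimated from the males alone, the female values of Lama1 (0.302) and Emilin2 (0.478) were positive. Emilin2 was at 0.929 without female +/+ 2. Ltbp1 was at 6.65 and 7.70 CPM in female E147A/+ and at 10.6 and 11.1 CPM in female +/+. Male E147A/+ libraries were at 9.08, 10.8 and 10.7 CPM and male +/+ libraries at 17.8, 8.92 and 10.1 CPM. Its female groups did not overlap and its male groups did (log2 fold change -0.60, SE 0.35, and -0.27, SE 0.29). Lama1, the alpha-1 chain of laminin, was at 2.63 and 1.39 CPM in female E147A/+ and 3.73 and 4.42 CPM in female +/+ (log2 fold change -1.02, SE 0.57), and its male groups overlapped. The culture plates were coated with laminin.

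In the remaining lists 0 members passed as well. The signalling members Alk, Rasgrp3 and Dlgap1 all had negative log2 fold changes, from -0.69 to -0.37 in females and from -1.95 to -0.10 in males, at 0.0409 to 0.279 CPM per kb. The sign of Rasgrp3 turned when 1 library was left out, to 1.38 in females without female +/+ 1 and to 0.12 in males without male +/+ 3. Membrane traffic (Rab12, Washc1, Ehd3 and Yipf4) lay between -0.14 and 0.09 in females and between -0.43 and 0.18 in males. Metabolism and transport (Lpin2, Lclat1, Slc30a6 and Galnt14) lay between -0.24 and -0.06 in females, and in males Galnt14, a GalNAc transferase that starts O-glycosylation, was at 0.723, 0.938 and 2.06 CPM in E147A/+ and at 0.379, 0.376 and 0.27 CPM in +/+ (log2 fold change 1.85, SE 0.61, edgeR unadjusted p = 0.0125, adjusted p = 1). In females its groups overlapped. For RNA processing and modification, Wdr43 and Trmt61b stayed between -0.05 and 0.04 in both sexes.

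**Figure D4:**
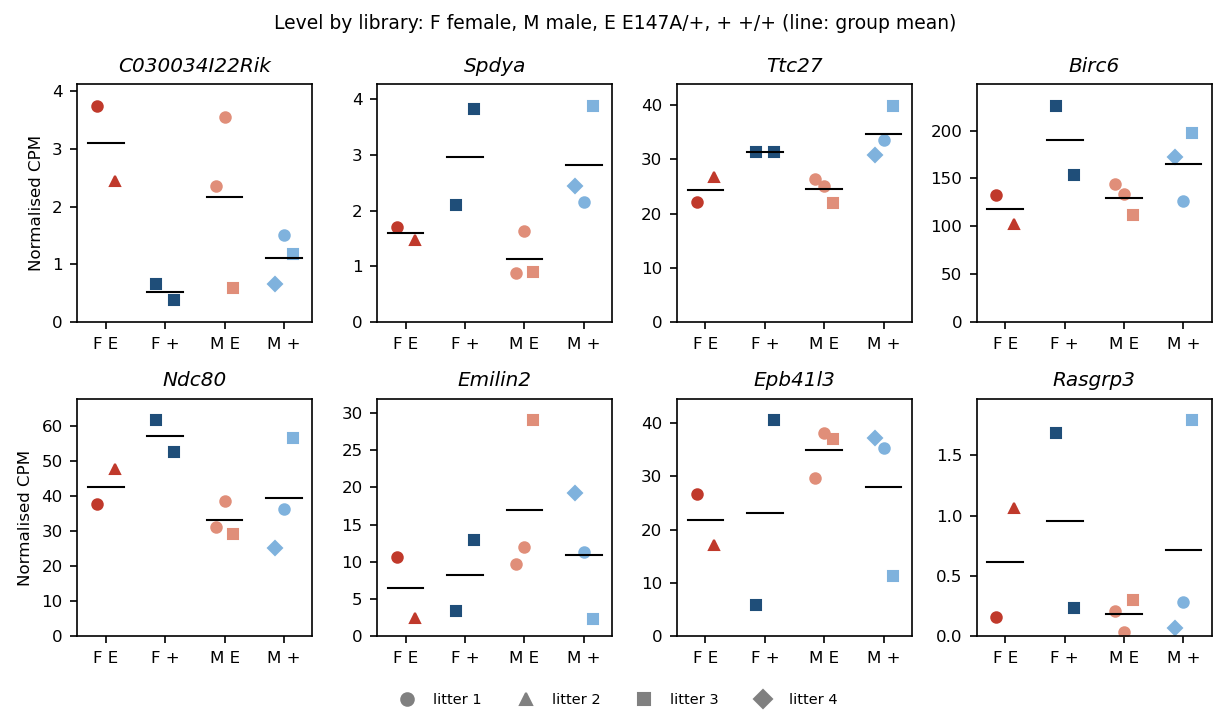
Level (CPM) of 8 members in each library, by sex and genotype (F female, M male, E E147A/+, + +/+); symbols give the litter and lines the group mean. Spdya and Ttc27 are lower in every E147A/+ library, and Emilin2, Epb41l3 and Rasgrp3 vary as much within a genotype as between genotypes.

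Several members varied more between embryos of 1 genotype than between genotypes, and the same 2 libraries of litter 3 stood apart. Emilin2 was at 3.44 CPM in female +/+ 1 and 2.33 CPM in male +/+ 3, against 11.3 to 19.2 CPM in the other male +/+ libraries and 13 CPM in female +/+ 2, and it was at 2.47 CPM in female E147A/+ 2. Epb41l3, a membrane skeleton protein, was at 5.83 and 11.3 CPM in those 2 +/+ libraries and at 17.1 to 40.5 CPM in the 8 others. Rasgrp3, a guanine nucleotide exchange factor for Ras, was at 1.69 and 1.79 CPM in them and at most 1.06 CPM in the others. Birc6 and Ndc80 also had their highest +/+ values of each sex there, and the log2 fold change of Birc6 without female +/+ 1 was nearer 0, at -0.39. In males the median absolute difference between genotypes over the 51 members was 0.142 within litter 1 and 0.614 within litter 3, and 23 members had opposite signs in the 2 litters. Litter 1 compares male E147A/+ 1 and 2 with male +/+ 2, and litter 3 compares male E147A/+ 3 with male +/+ 3. The same values over all genes were not analysed here, so they are no trait of the members.

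If the genotypes differed over this interval in strain composition and in nothing else, a gene with Cast share s in +/+ would have a log2 fold change of log2(2(1 - s)) in a culture with 2 non-Cast copies. Over the 38 members this arithmetic value ran from -1.42 to 0.98, and it was at least 0.2 in size for 12 of them, 4 positive and 8 negative. It and the female fold change share the +/+ female libraries, so the values are given side by side with no measure of likeness. Spdya had -0.85 by arithmetic and -0.89 measured in females, Ltbp1 -0.74 and -0.60, Ttc27 -0.24 and -0.36, and Myl12a 0.50 and 0.41. Lbh had 0.44 and 0.11. Birc6 had -0.03 by arithmetic and -0.69 measured, Lama1 0.11 and -1.02, and C030034I22Rik 0 and 2.55. With 2 libraries a group the measured female values moved when 1 library was left out: Spdya was at -0.40 without female +/+ 2, Ttc27 at -0.23 without female E147A/+ 1, Myl12a at 0.17 and Lama1 at -0.61 without female E147A/+ 2, Lbh at -0.10 without female E147A/+ 2 and at -0.04 without female +/+ 2, and Birc6 at -0.39 without female +/+ 1. Litter as a covariate gives female E147A/+ 2 no weight, and its litter effect was estimated from the males alone. It is thus no check within the females, where genotype and litter cannot be told apart. In that fit the measured female values were -0.67 for Spdya, -0.57 for Ltbp1, -0.52 for Ttc27, 0.45 for Myl12a, 0.495 for Lbh, -0.41 for Birc6, 0.30 for Lama1 and 1.41 for C030034I22Rik.

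The male libraries gave no counts to the female allelic shares, but male E147A/+ 3 and male +/+ 3 share litter 3 with both +/+ females. The strain composition of the males over the interval was not measured here. Their measured log2 fold changes were -1.31 (SE 0.44) for Spdya, -0.27 (SE 0.29) for Ltbp1, -0.50 (SE 0.17) for Ttc27, 0.23 (SE 0.24) for Myl12a and -0.43 (SE 0.30) for Lbh. The first 4 have the sign of the arithmetic value and Lbh has the opposite one. For Ltbp1 that sign rests on male +/+ 1 (17.8 CPM), the only library of litter 4: the value was 0.10 without it and 0.12 with litter as a covariate. For Myl12a the value was 0.03 without the same library and 0.09 with litter as a covariate, and 0.50 without male +/+ 3. For Lbh it was -0.16 without male +/+ 3, -0.27 without male E147A/+ 2, -0.71 without male +/+ 2 and -0.13 with litter as a covariate. Across the 38 members, which share libraries and are not independent replicates, Pearson's r between arithmetic and male fold change was 0.02 and Spearman's coefficient 0.07, and r was 0.25 without Gm20703 and Gm4705, the members farthest from the median. Of the 12 members with an arithmetic value of at least 0.2 in size, 7 had the same sign in males.

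**Figure D5:**
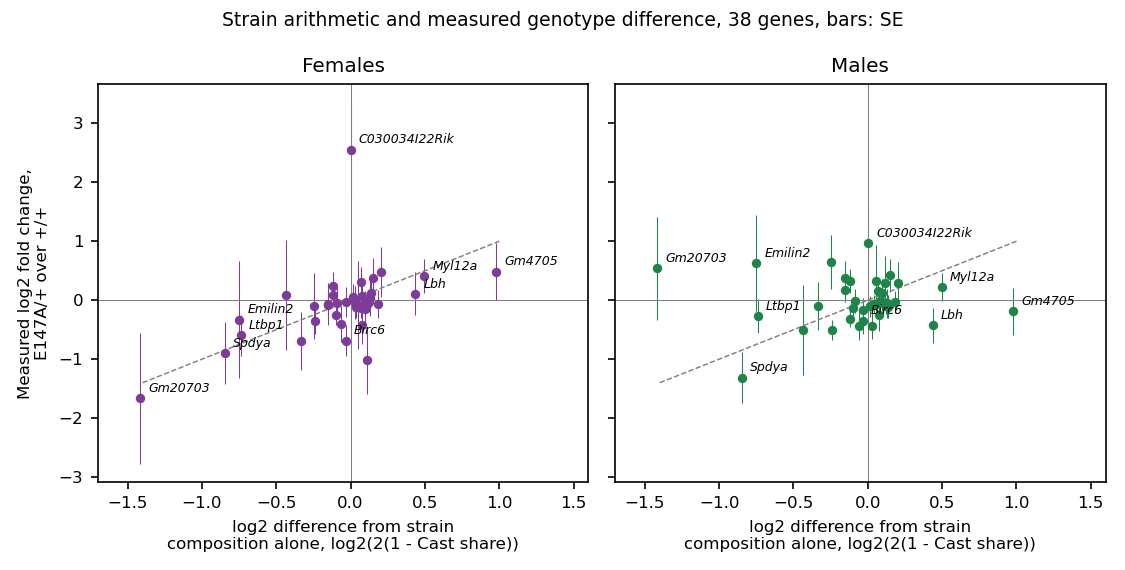
Measured log2 fold change of E147A/+ over +/+ against the log2 difference that strain composition alone gives, for 38 members in females (left) and males (right); bars are standard errors and the dashed line marks equal values. In females both axes use the +/+ female libraries; the named points include Spdya at -0.85 and -0.89 and Birc6 at -0.03 and -0.69, and male points scatter widely.

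Counts assigned to 129 were also compared per non-Cast copy. They come from the same female libraries as the arithmetic and the female fold changes. The comparison therefore largely restates those values and is no separate evidence. By the labels a non-Cast copy can be 129 or C57, and these were not separated here. The counts were scaled to the library and divided by the number of non-Cast copies, taken as 2 in the E147A/+ females and 1 in the +/+ females; the copy number was not measured on DNA. Over 38 members the median log2 difference (0.05 added) was 0.01, with 5 members (13.2%) higher in both E147A/+ libraries, 10 (26.3%) lower and 23 overlapping. Of all 653 genes in the 13 bins where both +/+ females carried both strains and both E147A/+ medians were under 5% Cast, which hold these 38, 20.2% were higher and 26.3% lower, so the members' shares were not above this background. Per copy, Spdya was at 0.219 and 0.208 CPM in E147A/+ and at 0.223 and 0.205 CPM in +/+, and Ttc27 was at 4.24 and 5 against 4.65 and 4.85 CPM. Ltbp1 was at 1.57 and 1.78 against 1.88 and 1.34 CPM. For these 3 the 129 counts per copy overlapped between genotypes. Of the 11 members whose female totals did not overlap and were lower in E147A/+, 5 overlapped per copy (these 3, Gm20703 and Lclat1) and 6 stayed lower (Birc6, Lama1, Lpin2, Mtcl1, Myl12b and Ndc80), which is 54.5% against 65.4% of the 156 genes with lower totals in the same bins.

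Per copy, 129 counts of other members did not overlap between the genotypes. Birc6 was at 12.5 and 9.91 CPM per copy in E147A/+ and at 19.9 and 16.3 CPM in +/+ (log2 difference -0.69). Lama1 was at 0.658 and 0.439 against 1.18 and 1.21 CPM (-1.05), and Ndc80 at 7.51 and 9.55 against 13.1 and 10.7 CPM (-0.48). C030034I22Rik was at 1.31 and 0.936 against 0.223 and 0.128 CPM (2.38), on 14 and 10 allelic counts in +/+. Smaller differences per copy were found for Mtcl1, a microtubule crosslinking protein (4.02 and 3.35 against 4.74 and 4.21 CPM, -0.28), Myl12b (20.1 and 23.7 against 24.6 CPM in both, -0.17) and Lpin2, a phosphatidate phosphatase (13.2 and 12.7 against 14.1 and 13.4 CPM, -0.09). Besides C030034I22Rik, the members higher per copy in both E147A/+ females were Tgif1 (log2 difference 0.44), Clip4 (0.42), Ddx11 (0.38) and Memo1 (0.14). With 2 libraries a group and litter bound to genotype no test was made. Myl12a (21.8 and 30 against 25.5 and 16.9 CPM) and Lbh (18.7 and 24.9 against 30.3 and 21.5 CPM) overlapped per copy.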

How the data were processed

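Stranded poly(A) libraries were sequenced as paired 80-base reads, per the labels' protocols. Raw gene counts of all 10 libraries were deposited, and for the 4 female libraries the authors also gave 129-specific and Cast-specific counts. Trim Galore 0.4.4, HISAT2 2.0.5, featureCounts, R 3.5.1, edgeR 3.24.0 and the builds GRCm38 and mm10 are named in the submitters' processing notes; how reads were assigned to an allele is not given in the sources used here.

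Counts were filtered with filterByExpr (17110 genes tested), scaled by TMM and fitted in edgeR 4.0.16 (R 4.3.3, limma 3.58.1) by quasi-likelihood, with a mean for each of the 4 groups and 6 residual degrees of freedom. The SE was derived from the F statistic. The allele test used +/+ females only, with library sizes from the total counts, genes with at least 10 allelic counts in each library, and 10 Mb bins whose median Cast share was from 35% to 65% in both (72 of 257 bins). Intervals of shares are Wilson's at 95%, and a count of 0 was bounded by 3 counts. Depth was 20648916 to 44519020 counts per library.

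The members, the gene lists and the comparisons were chosen with earlier results of these data known. Genes were named as those with the highest and lowest fold changes or Cast shares, the neighbours of Smchd1, and members of role lists. Replicates are separate embryos by the labels. Deviations of same-numbered libraries had a correlation of -0.304 in females and -0.238, 0.416 and 0.0341 in males. Both female numbers give the same value by construction. Male numbers 2 and 3 join libraries of the same litter, litter 1 and litter 3. Whether the numbers pair the libraries in any other way cannot be read from these correlations. Alternatives were RLE scaling, DESeq2 1.42.0, other filters, litter, a replicate block, only the groups compared, 30 allelic counts, other gene sets and leaving out each library; the fit with female numbers crossed was chosen after seeing the data. The methods were tested on simulated data: the allele test on its 3061 genes recovered 82% of 50 genes with a log2 ratio of 1 and 96% of 50 with 2, with 2 false calls. Those allelic counts were simulated with a fixed spread that was not estimated from these data. The expected ratio was the same in both embryos, so recovery in the real libraries may differ.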

Additional observations from a re-analysis of the deposited data

How the results depend on the processing

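No genotype contrast called a member under any alternative, and 0 were called each time a library was left out. Members passing the allele test numbered 3 with 30 allelic counts (Ltbp1 joined and Gm4705 was not tested), 7 with chromosome 17 alone (18.4%, as of all genes there), 0 with all autosomal genes (0 genes in all) and 0 with no replicate block (2.25% of genes), where Myl12a (adjusted p = 0.142) and Lbh (0.129) had ratios of -1.27 and -1.08; the 3 called in the main test were shared with chromosome 17 alone. The median Cast share in female E147A/+ 1 was 0.106% with 30 counts. Pearson's r in males was -0.106 with 30 counts, and -0.0822 and 0.128 with the share of female +/+ 1 or 2 alone. With the replicate block, which pairs same-numbered libraries, 0 members were called, and Galnt14 (0.0229) and Epb41l3 (0.457) in females changed sign, as with the crossed pairing (0.00825 and 0.457); without the block the Epb41l3 allele ratio was 0.00888.

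Litter as a covariate leaves female E147A/+ 2 and male +/+ 1, the only libraries of litters 2 and 4, without weight, and reversed Emilin2 (0.478), Ddx11 (-0.311), Ndufv2 (0.141), Myl12b (0.352), Gm23115 (-0.409), Galnt14 (0.257), Arhgap28 (0.459) and Lama1 (0.302) in females and Ltbp1 (0.121), Ddx11 (-0.205) and Ndufv2 (0.02) in males; C030034I22Rik fell to 1.41 in females and 0.138 in males. The litter effect applied to females in that fit was estimated from the males alone, since litter is bound to genotype in females. The cause was not tested. Leaving out each library in turn also turned signs. In females the log2 fold changes ranged from -0.105 to 0.311 for Lbh, -1.74 to 0.929 for Emilin2, -0.141 to 0.0956 for Ndufv2, -0.691 to 0.85 for Galnt14, -2.5 to 1.38 for Rasgrp3 and -0.891 to 1.91 for Epb41l3. In males they ranged from -0.454 to 0.0962 for Ltbp1, -0.309 to 1.63 for Gm20703, -0.0107 to 1.32 for Emilin2, -0.134 to 0.0522 for Ndufv2, -0.126 to 0.372 for Myl12b, -0.491 to 0.104 for Ndc80, -2.49 to 0.12 for Rasgrp3, -0.179 to 1.06 for Arhgap28, -0.287 to 0.569 for Lama1 and -0.0536 to 0.587 for Epb41l3. The allele ratios of Birc6 (-0.0534 to 0.188), Lama1 (-0.566 to 0.0893) and Epb41l3 (-0.273 to 0.0572) turned sign too. Spdya stayed between -1.27 and -0.40 in females and -1.67 and -1.02 in males, and Ttc27 between -0.48 and -0.23 and -0.58 and -0.39. Depth left 13 members with too few allelic counts for the allele test.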
